A study of Saccharomyces cerevisiae with 4 samples.

Results

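The genes described here encode 6 major mannoproteins that yeast builds into its growing cell wall, namely CCW12, CCW14, CWP1, CWP2, CIS3 and PIR3. They were chosen by gene symbol in the platform annotation and were represented by 12 of the 896 features listed, and by 6 of the 353 genes named. All 6 passed the requirement of values on at least 3 arrays, and 345 genes in all did so. The study hybridised 4 2-colour arrays devoted to yeast cell wall genes, called yellow experiments in the labels, and on each of them Cy3 and Cy5 both marked cDNA of the same total RNA. The RNA came from untreated Saccharomyces cerevisiae of the strain BY4741, a haploid of mating type a widely used in laboratories, grown in YEPD, a rich medium, at 24 °C. An overnight culture at an optical density of 0.8 to 1 was brought to 0.2 and harvested 6 h later. The 4 arrays formed 1 group with no treated or mutant cells beside it. A true difference between the channels was therefore absent by design, and each ratio measured here is a departure of the measurement from equality. It is not a level of expression.

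The yeast wall has an inner layer of glucan and chitin and an outer layer of heavily mannosylated proteins. GPI-anchored wall proteins lose most of their lipid anchor and are joined through beta-1,6-glucan to the wall, whereas PIR proteins, named for their internal repeats, are bound directly to beta-1,3-glucan through links that mild alkali breaks. CCW12, CCW14, CWP1 and CWP2 belong to the first class. CIS3 and PIR3 belong to the second. In the R64 gene table CWP1 and CWP2 are direct neighbours on chromosome XI, and PIR3 is a direct neighbour of PIR1 on the same chromosome.

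CCW14, CWP2 and CCW12 read higher than the array median, and CWP1, CIS3 and PIR3 did not pass the test. In limma's fit over all genes, 3 of the 6 genes were called higher and 0 lower at a Benjamini-Hochberg adjusted p of 0.05, beside 10.7% of all tested genes called higher, 14.2% called lower and 24.9% called in either direction. At an unadjusted p of 0.05 it was 4 of 6, CIS3 being added, beside 41.4% of all genes. The median of the 6 mean log2 ratios was 0.49, against -0.051 over the other 339 tested genes. All values are log2 ratios of the deposited table, with the array median subtracted and both features of a gene averaged. Directions are as deposited, because the sources do not state which dye was the numerator. The array medians were -0.058, -0.25, -0.19 and -0.24, and without their subtraction the members' median was 0.31. The labels do not say whether separate cultures lay behind the arrays, and p-values therefore reflect the spread among these 4 hybridisations, which may be purely technical.

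Among the GPI-anchored proteins, CCW14, a glycoprotein of the inner wall layer, read 0.98, 0.88, 0.95 and 1.32 on arrays 1 to 4. Array 4 stood above the other three, which lay close together. The mean was 1.03 ± 0.20 (SD, n = 4), a 2.05-fold departure with a 95% interval of 0.76 to 1.30 on the log2 scale, and limma's adjusted p was 0.0207. By its mean it ranked 17th from the top of the 345 genes, and on each array it lay above 88.4% to 96.5% of the other genes with a value.

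CWP2, a small mannoprotein that is one of the main constituents of the wall, read 0.48, 0.81, 0.67 and 1.11 on arrays 1 to 4. Array 1 was the lowest and array 4 the highest, and all lay above the array median. Its mean was 0.77 ± 0.26 (SD, n = 4), or 1.70-fold, with an adjusted p of 0.0347 in limma. CCW12, whose loss weakens the wall, read 0.47, 0.75, 0.31 and 0.58, so that it was highest on array 2 and lowest on array 3. Its mean of 0.53 ± 0.18 (SD, n = 4), or 1.44-fold, also had an adjusted p of 0.0347 in limma. The adjusted p of CCW12 was 0.0498 in limma on the values as deposited, with a mean of 0.34.

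CWP1, a mannoprotein found at the birth scar, read -0.014, -0.015, 0.33 and 0.15 on arrays 1 to 4. It thus lay at the array median on arrays 1 and 2 and above it on the others. The mean of 0.11 ± 0.16 (SD, n = 4) was smaller than the spread between arrays, with an adjusted p of 0.413 in limma and an interval of -0.13 to 0.35. On the values as deposited the mean of CWP1 turned to -0.073, and without array 3 it was 0.039. The log2 ratio of CWP2 exceeded that of CWP1 on 4 of 4 arrays, by 0.65 ± 0.29 (SD, n = 4).

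Of the PIR proteins, CIS3 read 0.22, 0.22, 0.42 and 0.97 on arrays 1 to 4. It lay above the median on every array, but array 4 was far above the others. Its mean was 0.46 ± 0.36 (SD, n = 4) with an interval of 0.031 to 0.88, and the adjusted p of 0.105 in limma did not pass. On the values as deposited its mean was 0.27, with an adjusted p of 0.214 in limma. An alternative chosen after seeing the data left out genes with gaps or with ratios of small whole numbers. CIS3 passed in that fit, with an adjusted p of 0.0420 in limma. The fit held 209 genes, of which 44.5% were called. Without array 4 the mean of CIS3 was 0.29.

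PIR3, the other PIR protein, read -0.071, -0.14, 0.14 and 0.51 on arrays 1 to 4. Below the median on arrays 1 and 2 and above it on arrays 3 and 4, it showed no direction shared by all arrays. Its mean was 0.11 ± 0.29 (SD, n = 4), with an adjusted p of 0.598 in limma and an interval of -0.25 to 0.47. The mean turned to -0.075 on the values as deposited and to -0.025 without array 4. CIS3 exceeded PIR3 on 4 of 4 arrays, by 0.35 ± 0.083 (SD, n = 4).

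**Figure D1:**
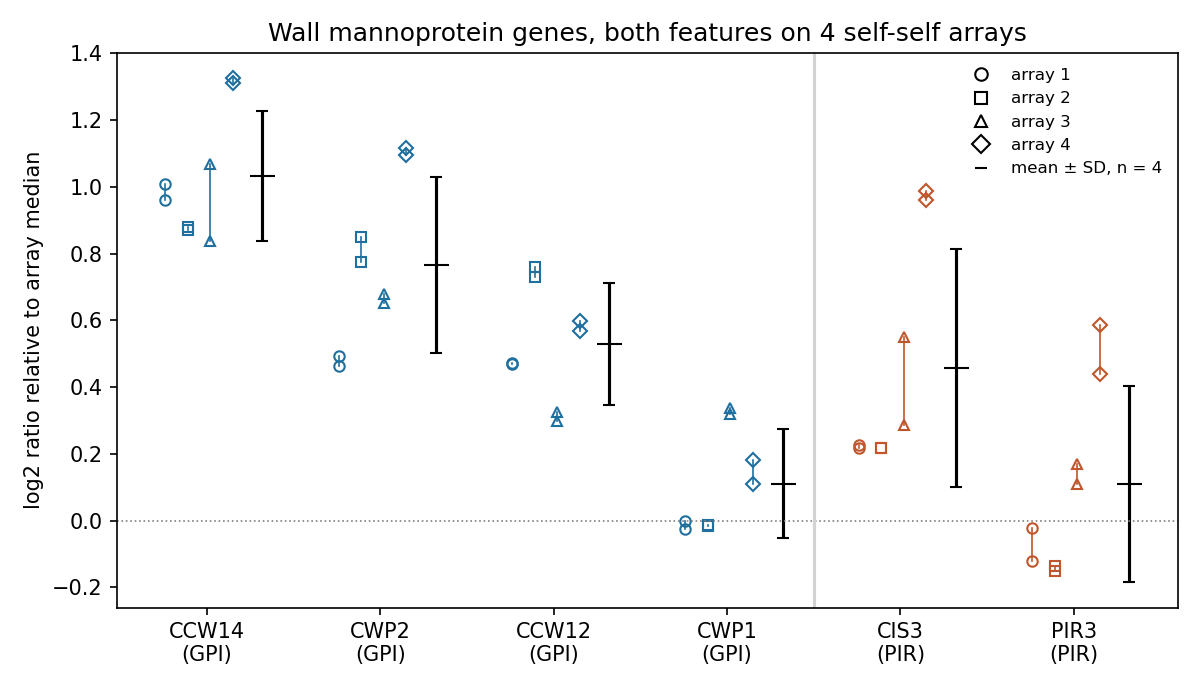
Log2 ratio relative to the array median (vertical axis) for each gene (horizontal axis), with both duplicate features of a gene as open symbols joined by a line, 1 symbol shape per array, and the mean ± SD over 4 arrays as a bar. CCW14 lies highest and CWP1 and PIR3 lie around 0, and array 4 is the highest for CCW14, CWP2, CIS3 and PIR3.

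The calls of CCW14, CWP2 and CCW12 rested on all 4 arrays. With any array left out 0 of the 6 genes passed in limma, and 3, 3, 3 and 4 of them had an unadjusted p under 0.05 without arrays 1, 2, 3 and 4, beside 34.5%, 35.5%, 34.5% and 36.0% of all genes. Over all genes 0, 0, 1 and 0 passed after adjustment. The sizes changed less. The mean of CCW14 ran from 0.94 to 1.09, with adjusted p-values of 0.0653 to 0.0858 in limma. That of CWP2 ran from 0.65 to 0.86, with 0.0661 to 0.0964, and that of CCW12 from 0.46 to 0.60, with 0.0808 to 0.104.

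Counted by sign alone, CCW12, CCW14, CWP2 and CIS3 lay above the median on all 4 arrays, which is 4 of 6 members beside 25.1% of the 327 genes with values on every array. Below the median on all 4 arrays lay 0 members, beside 26.3% of those genes. On the values as deposited, CIS3 was above 0 on 3 of 4 arrays, with -0.031 on array 2. Departures beyond 1.5-fold upwards were seen for CCW14 alone on array 1, for CCW12, CCW14 and CWP2 on array 2, for CCW14 and CWP2 on array 3, and for CCW14, CWP2 and CIS3 on array 4. These counts stand beside 12.7%, 16.6%, 13.7% and 12.8% of the genes with a value on arrays 1 to 4. Only on array 4 did members exceed 2-fold, namely CCW14 at 2.49-fold and CWP2 at 2.15-fold, beside 6.69% of genes there. On arrays 1, 2 and 3, 6.78%, 9.5% and 7.6% of genes and 0 members were beyond 2-fold.

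The order of the ratios by their means was CCW14, CWP2, CCW12, CIS3, CWP1 and PIR3. CCW14 came first and CWP2 second on every array, while the places below changed. CCW14 exceeded CWP2 by 0.27 ± 0.18 (SD, n = 4), on 4 of 4 arrays. The gap between CWP2 and CCW12, 0.24 ± 0.24 (SD, n = 4), and that between CIS3 and CWP1, 0.35 ± 0.33 (SD, n = 4), also had the same sign on 4 of 4 arrays but were about as large as their spread. Without array 4 these gaps were 0.14 and 0.19. CCW12 and CIS3 did not differ beyond their spread, at 0.070 ± 0.40 (SD, n = 4) with 2 arrays each way, nor did CWP1 and PIR3, at 0.0018 ± 0.25 (SD, n = 4). Without array 2 the gap of CCW12 over CIS3 turned to -0.083, and that of CWP1 over PIR3 was -0.060 without array 3 and 0.12 without array 4. In exact two-sided sign-flip permutation tests of these 5 neighbouring differences the unadjusted p-values were 0.125 for the 3 of constant sign, 0.75 for CCW12 and CIS3 and 1 for CWP1 and PIR3. With 4 arrays this test cannot go below 0.125, so it could not decide the order. The pairs were also set by the order of these same means. Adjusted over the 5 differences, the lowest was 0.208 in the exact test.

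The anchoring class did not divide the genes cleanly. The mean of the 4 GPI-anchored genes was 0.48, 0.61, 0.56 and 0.79 on arrays 1 to 4, and that of the 2 PIR genes 0.075, 0.037, 0.28 and 0.74. The GPI-anchored mean was the higher on 4 of 4 arrays, by 0.40, 0.57, 0.29 and 0.045, so that the classes nearly met on array 4. The difference averaged 0.33 ± 0.22 (SD, n = 4), and a subtraction of array medians cancels from it. It ran from 0.24 without array 2 to 0.42 without array 4. The genes of the classes overlapped on every array, since CWP1 lay below CIS3 on all 4 and CCW12 below CIS3 on arrays 3 and 4. With CCW14 set aside, the difference was 0.18 ± 0.25 (SD, n = 4) and was above 0 on 3 of 4 arrays. The single other PIR gene measured, PIR1, read 0.054, 0.16, 0.22 and 0.42 on arrays 1 to 4, with a mean of 0.21 ± 0.15 (SD, n = 4) and an adjusted p of 0.145 in limma. It was also highest on array 4, and with PIR1 added to the PIR class the difference was 0.35 ± 0.16 (SD, n = 4). PIR genes are related in sequence, and cross-hybridisation between them was not tested.

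By median SD the members varied between arrays about as much as all other tested genes. By that measure they varied more than those that, like the members, had neither gaps nor ratios of small whole numbers. Their SD ran from 0.16 for CWP1 to 0.36 for CIS3 with a median of 0.23, against a median of 0.24 over the other 339 tested genes and 0.17 over the 203 of these that had neither gaps nor ratios of small whole numbers. The SD was 0.16 to 0.26 in the GPI-anchored genes and 0.29 and 0.36 in the PIR genes.

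**Figure D2:**
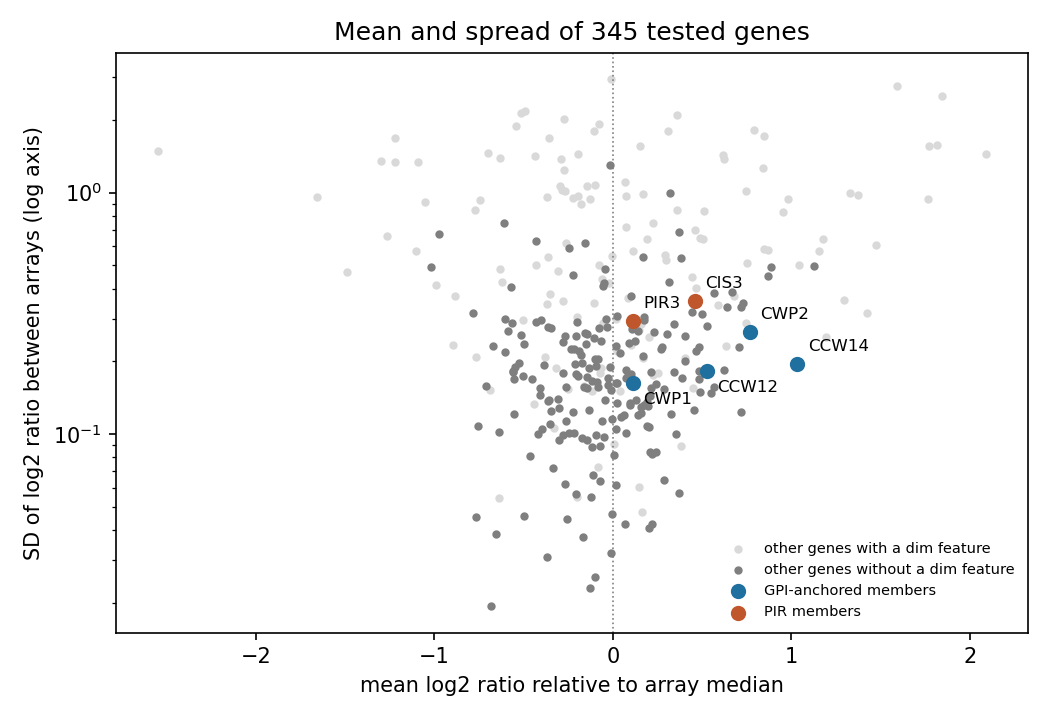
Mean log2 ratio relative to the array median (horizontal axis) against the SD between arrays (vertical log axis) for each of 345 tested genes, with members as large points. Dim features lack a value or show a ratio of whole numbers up to 10 on some array. CCW14, 17th of the 345 means, lies at 1.03 with an SD of 0.20, and all 6 members have means above 0.

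The members departed from their own means together on array 4. There all 6 members read above their own mean over the arrays, beside 49.8% of the 327 genes, and on array 1 all 6 read below it, beside 65.7% of genes. CIS3 exceeded its own mean by 0.52 on array 4, PIR3 by 0.40, CWP2 by 0.34, CCW14 by 0.28, CCW12 by 0.054 and CWP1 by 0.035. The average of the 6 on arrays 1 to 4 was -0.16, -0.085, -0.031 and 0.27, whereas that of the other 321 genes was -0.038, 0.052, 0.054 and -0.068. The shared departure on array 1 depended on the centring: on the values as deposited 3 of the 6 lay below their own mean there, beside 39.5% of genes, and with quantile normalization 4 of the 6 did, beside 66.1%. On array 4, 4 of the 6 lay above it as deposited, beside 41.9% of genes. With the arrays scaled to one spread 5 did so, beside 51.1%. All 6 did so with quantile normalization, beside 52.9%, and with blocks of consecutive rows centred, beside 51.1%. The highest value fell on array 4 for CCW14, CWP2, CIS3 and PIR3, 4 of 6 members beside 29.7% of genes, and for 4 members beside 19.3% of genes as deposited. Related genes shared this in part. PIR1 was highest on array 4, and so were 16 of 33 genes with 4 values from a partial list of other GPI-anchored proteins. As deposited it was 13 of the 33. Of 4 soluble or detergent-extractable wall genes 0 were highest there, and of 9 abundant transcripts outside the wall 0 were. Above their own mean on array 4 lay PIR1, 20 of the 33, 3 of the 4 and 1 of the 9, beside 49.8% of the 327 genes. What sets array 4 apart was not tested.

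**Figure D3:**
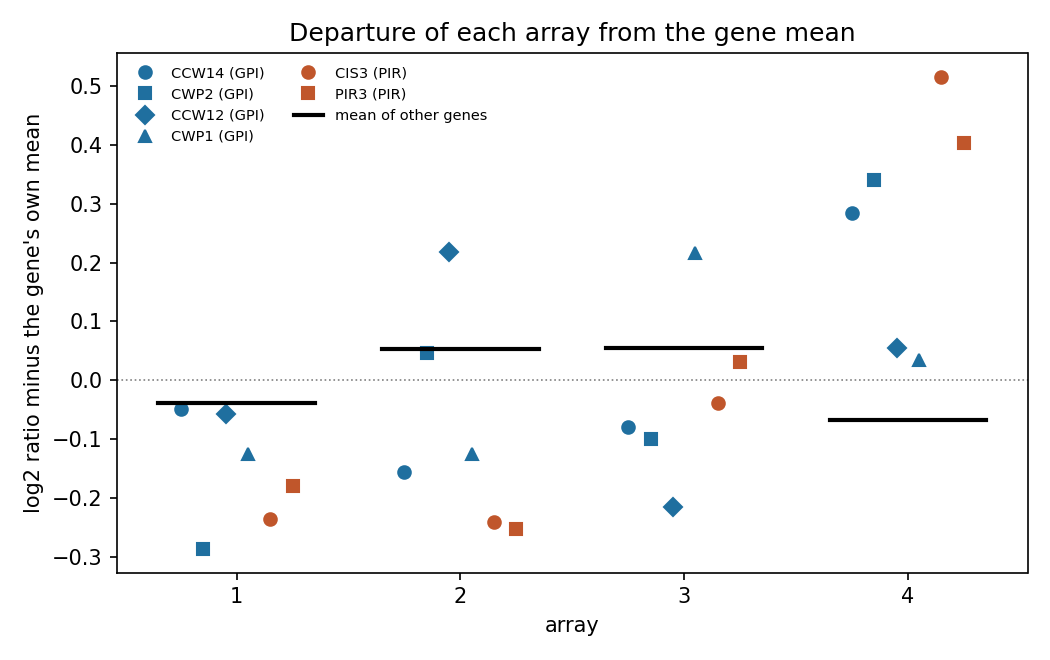
Log2 ratio minus the gene's own mean over the 4 arrays (vertical axis), by array (horizontal axis), 1 point per member, with a black bar for the mean of 321 other genes with values on all arrays. All 6 members lie above 0 on array 4, where CIS3 reaches 0.52 and the other genes average -0.068.

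The duplicate features of a member differed little. Both features gave a value on every array, so that 0 of 48 values were missing, against 5.55% of 2848 values in the other annotated genes. None of the 48 equalled a ratio of whole numbers up to 10, against 7.32% of the present values of the other genes. Whether such ratios mark a low signal was not tested, because channel intensities were not used here. Genes with at least 1 missing or small whole-number ratio made up 41.5% of the other 347 annotated genes and 0 of the 6 members.

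Over arrays, the mean absolute log2 difference between duplicates was 0.0230 for CCW12, 0.0295 for CWP1, 0.0388 for CWP2, 0.0752 for CIS3, 0.0754 for CCW14 and 0.0809 for PIR3. The median over the other genes was 0.116, and 0.0829 over the 203 without a missing or small whole-number ratio, so that every member lay below both. By single array, 20 of the 24 differences lay below the median of the other genes on that array, and 19 below the median of those 203 genes. The largest were on array 3, where the features of CIS3 read 0.55 and 0.29 and those of CCW14 read 1.07 and 0.84, and on array 4, where those of PIR3 read 0.59 and 0.44. For the members the pooled SD between duplicates was 0.061, that between arrays within a gene 0.25, and the SD between gene means 0.36. Duplicates, which lay in consecutive rows of the table, thus differed less than arrays did. In the 203 genes these values were 0.30, 0.27 and 0.37. A pooled SD gives more weight to large differences, and the largest mean duplicate difference of a gene among the 203 was 1.63. The median difference of single pairs was 0.069 in the 203 genes and 0.029 in the members.

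**Figure D4:**
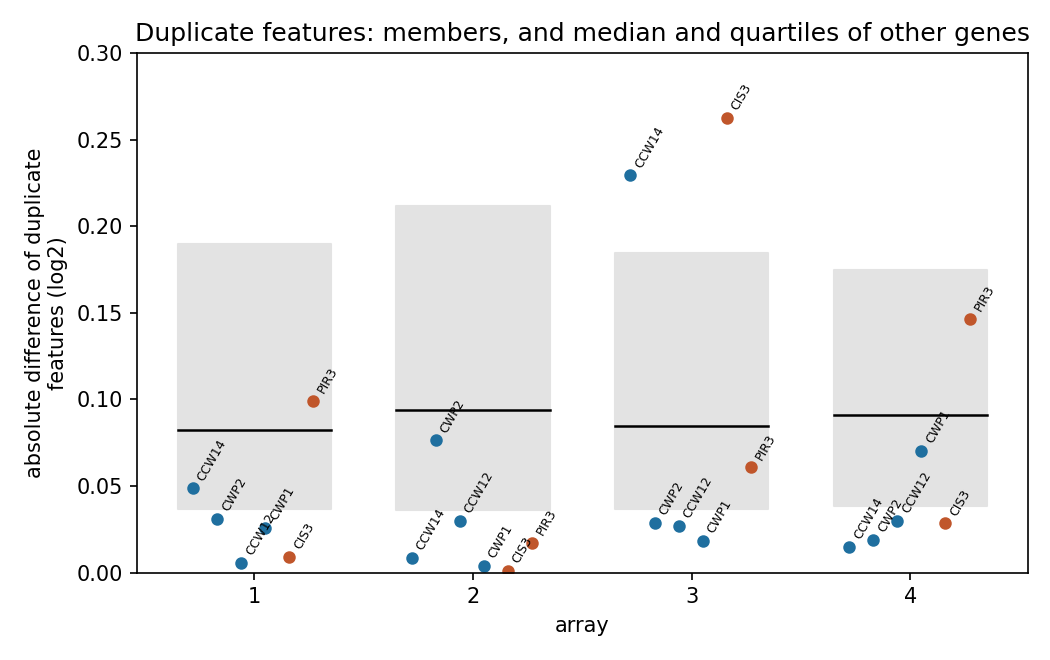
Absolute log2 difference between the duplicate features of each member (points, blue for GPI-anchored and orange for PIR) on each array, with the median (black line) and the range between quartiles (grey box) of the other genes. Most members lie below the median, and CIS3 and CCW14 on array 3 lie above the upper quartile of 0.185.

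Other proteins of the wall gave both directions. A partial list of other GPI-anchored proteins, chosen by hand, had 35 measured genes. Of these 35 genes, 5 were higher and 2 lower in limma, against 10.7% and 14.2% of all tested genes. Their median mean was 0.072, beside -0.043 over all tested genes. The higher ones were TIR1 and TIR3, cold-inducible mannoproteins, at 0.56 ± 0.16 and 0.63 ± 0.23, FIG2, a mating protein, at 0.37 ± 0.057, EGT2, of daughter cell separation, at 0.35 ± 0.10, and UTR2, a wall transglycosylase, at 0.28 ± 0.064 (SD, n = 4). SAG1, the agglutinin of the other mating type, at -0.33 ± 0.11, and GAS5, a glucanosyltransferase, at -0.99 ± 0.41 (SD, n = 4), were lower. As deposited, FIG2, EGT2 and UTR2 did not pass, and FLO10 was added to the lower ones. That made 2 of the 35 higher and 3 lower, beside 21 higher and 91 lower of all 345 tested genes in that fit. The list median was then -0.11. TIR3, SAG1, GAS5 and FLO10 had a missing value or a small whole-number ratio. Of 4 measured genes of soluble or detergent-extractable wall proteins SCW10, a glucanase family protein, was higher at 0.38 ± 0.17 (SD, n = 4), but not as deposited, and 0 were lower.

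Of 9 measured genes with abundant transcripts outside the wall, 3 passed as higher and 0 as lower, beside 10.7% and 14.2% of all tested genes. Their median mean was 0.57, beside -0.043 over all tested genes, or 0.38 on the values as deposited. TPI1, FBA1 and CDC19, all of glycolysis, had means of 0.62 ± 0.18, 0.72 ± 0.34 and 0.73 ± 0.35 (SD, n = 4). These means lie between those of CCW12 and CWP2. Their highest array was array 2 in each case, where CCW12 was also highest, while CCW14, CWP2 and CIS3 were highest on array 4. FBA1 and CDC19 read nearly alike on every array. On arrays 1 to 4 FBA1 read 0.39, 1.14, 0.84 and 0.50, and CDC19 read 0.40, 1.17, 0.85 and 0.51. Of the same list, TDH2, TDH3, PGK1 and ENO2 also read 0.39 to 0.40 on array 1, and TDH2 and TDH3 read 1.14 on array 2. Whether these genes gave independent readings was not tested.

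The genes of most similar values were found by the root mean square difference of the log2 ratio over the 4 arrays, among the 321 other genes with a value on each. This measure takes in the size of a gene's mean as well as its changes between arrays. How close the best of 321 genes comes by chance was not tested. CWP1 had the closest match, ECM14, a putative metallocarboxypeptidase, at 0.0455, followed by BNA4, of kynurenine breakdown, at 0.0863. For CWP2 these were ECM7, a membrane protein, at 0.0869 and MKK2, a MAP kinase kinase of wall integrity signalling, at 0.164. For PIR3 they were KRE1, of beta-1,6-glucan assembly, at 0.101 and the anaerobic mannoprotein DAN1 at 0.102. CCW12 was closest to PGK1, of glycolysis, at 0.138 and to TOH1 at 0.148. CIS3 was closest to the mannoprotein HPF1 at 0.147 and to FOX2, of peroxisomal fatty acid breakdown, at 0.150. CCW14, whose mean ranked 17th of 345, had the most distant matches, the corepressor CYC8 at 0.265 and the glucose sensor SNF3 at 0.308. No member was among the compared genes, and CYC8, ECM7, KRE1 and DAN1 had a missing value or a small whole-number ratio.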

How the data were processed

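The values were log2 ratios of 4 2-colour arrays, 1 per feature and array, as the authors deposited them. The scanner, software, background correction, filter, normalization and numerator dye are not given in the sources used here. The log2 scale was read from values that equal log2 of ratios of whole numbers up to 10 within 0.00005. Features took gene names from the platform annotation: 724 had 1 gene, all matched to R64 by Entrez identifier, 10 had several and 162 had none.

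Since array medians lay over 0.1 from 0, each array was centred on its median. Features of a gene were averaged, and the 345 genes present on 3 or more arrays were fitted with limma's lmFit and eBayes against 0, two-sided, with Benjamini-Hochberg adjustment. The number of arrays limits the precision. A feature is called dim here where it has a missing value or a ratio of whole numbers up to 10 on some array. Whether such features had a low signal was not tested. All 6 members are named. Others named are the 2 closest genes to each member by values, and genes of 4 lists. From the PIR list every measured gene is named, passing or not, and from the other lists those that passed. FLO10, TDH2, TDH3 and ENO2 were named after their values were seen. Members and lists were chosen with earlier results of these data known. No set test was run, and classes were compared by description. Alternatives covered centring, normalization, dim features, arrays needed, features kept apart, a robust fit and each array left out. The fit was also run on simulated data with independent normal values and the observed spreads, and its outcome is not reported here. R 4.3.3 with limma 3.58.1, and Python 3.11.15 with pandas 2.3.3, scipy 1.17.1 and matplotlib 3.10.9 were used.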

Additional observations from a re-analysis of the deposited data

How the results depend on the processing

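No paired comparison of samples was possible because the 4 arrays form 1 group. The count of 3 members called higher was 3 in each of 8 alternatives run with all 4 arrays, which covered centring, normalization, filters, features kept apart and a robust fit, and 4 in an alternative chosen after seeing the data, which left out genes with a dim feature and added CIS3. In that fit 44.5% of 209 genes were called, and 19.1% were called higher. With 1 array left out the count was 0 in each case, and that over all genes 0 to 1. Fewer arrays entered each of those fits, and what removed the calls was not tested. With features kept apart, where both features of a gene had to pass, 54 genes were called in place of 86. As deposited 21 were called higher and 91 lower, against 37 and 49 after centring. The means of CWP1 and PIR3 turned to -0.073 and -0.075 as deposited, and that of PIR3 ran from -0.025 without array 4 to 0.194 without array 2. The difference between GPI-anchored and PIR genes ran from 0.24 to 0.42 and the members' median from 0.31 to 0.54 over the alternatives that recomputed them. Signal over background and saturation are unknown, since channel intensities were not used here.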
